A study of Ovis aries with 12 samples.

Results

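PPARG, GATA3, TFAP2C, ELF5 and TEAD4, transcription factor genes that shape the trophoblast, and S100G, the gene of a small calcium-binding protein found in intestine, uterus and placenta, were followed through 12 RNA-seq libraries of sheep embryos. The genes were taken by name from a list of 7, and 6 of the 7 were found among the 26247 entries of the deposited table. GATA2 was not analysed here. The embryos came from 2 breeds, Hulunbuir Short-tail Sheep, named by the submitters as the experimental group, and Ujumqin sheep, named as the control. Embryos of each breed were taken at day 16 and at day 25 and dissociated with enzymes, and RNA was sequenced in bulk from 3 libraries in each of the 4 groups. No genetic modification or treatment is named for any group. Whether fetal membranes stayed with the embryo, how many embryos made a library, and whether replicates were different embryos or repeat preparations are not stated in the labels. The p-values below therefore measure only the spread between these samples, which may be technical.

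The trophoblast is the outer epithelium of the conceptus and becomes the fetal side of the placenta. In sheep it elongates before it attaches to the uterus, and a share of its cells become binucleate cells, which secrete placental lactogen and pregnancy-associated glycoproteins (PAGs). In the mouse TEAD4, the DNA-binding partner of the Hippo pathway coactivator YAP1, acts at the first separation of trophoblast from inner cell mass. GATA3, TFAP2C (AP-2 gamma) and ELF5, an ETS factor, maintain trophoblast identity in that species. PPARG is a nuclear receptor that binds DNA with an RXR partner, is required for placental development in the mouse and directs fat cell formation. S100G, also called calbindin-D9k, buffers calcium inside epithelial cells that transport it and is a classical target of vitamin D.

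The 6 genes are placed on the Oar_v3.1 assembly by the table. PPARG (ENSOARG00000016452) lies on chromosome 19 from 56552358 to 56652679 on the minus strand. GATA3 (ENSOARG00000013941) and TFAP2C (ENSOARG00000018105) share chromosome 13, at 12077522 to 12092946 on the plus strand and 58655371 to 58662719 on the minus strand. ELF5 (ENSOARG00000018645) lies on chromosome 15 from 63218889 to 63243784 on the minus strand. TEAD4 (ENSOARG00000010808) lies on chromosome 3 from 210770912 to 210802247 on the minus strand, and S100G (ENSOARG00000013018) on chromosome X from 14125427 to 14128755 on the plus strand. These are spans of whole genes, exons and introns together. All 6 passed the expression filter of at least 1 FPKM (fragments per kilobase scaled to sequencing depth, the authors' unit) in at least 3 of the 12 libraries. PPARG reached 1 FPKM in 8 libraries, ELF5 in 9, TFAP2C in 11, and GATA3, TEAD4 and S100G in 12.

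Total gene counts lay between 43131962 and 55455815 in day 16 libraries and between 30464606 and 39643588 in day 25 libraries, and 14595 genes were tested. Replicates spread more at day 16 (biological coefficient of variation 43.8%, 6 libraries) than at day 25 (18.1%, 6 libraries). The model over 12 libraries gives all groups a common spread per gene, so day 16 calls were also examined in the 6 day 16 libraries alone, where 3 genes (0.0206% of those tested) were called between breeds.

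Placental product transcripts set 2 libraries apart. The table holds 19 entries described as pregnancy-associated glycoproteins, which were looked up after the members' values had been seen and are given as sums, since reads of this multigene family can be split among its copies. Their summed level was 759, 2866 and 1.61 FPKM in Ujumqin day 16 replicates 1, 2 and 3. In Hulunbuir day 16 replicates 1, 2 and 3 it was 7.45, 13.3 and 0.427 FPKM, and no day 25 library exceeded 3.63 FPKM. Replicates 1 and 2 of Ujumqin day 16 thus stood far above every other library, and replicate 3 of that group did not. Placental lactogen followed the same division, with 15.7, 47.0 and 0 FPKM in Ujumqin day 16 and 0, 0.152 and 0 FPKM in Hulunbuir day 16. The 5 entries for prolactin-related proteins summed to 13.2, 47.3 and 0.0947 FPKM in Ujumqin day 16 and stayed at or below 0.208 FPKM in the 9 libraries of the other groups. Breed comparisons at day 16 are therefore given with and without these libraries.

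**Figure D1:**
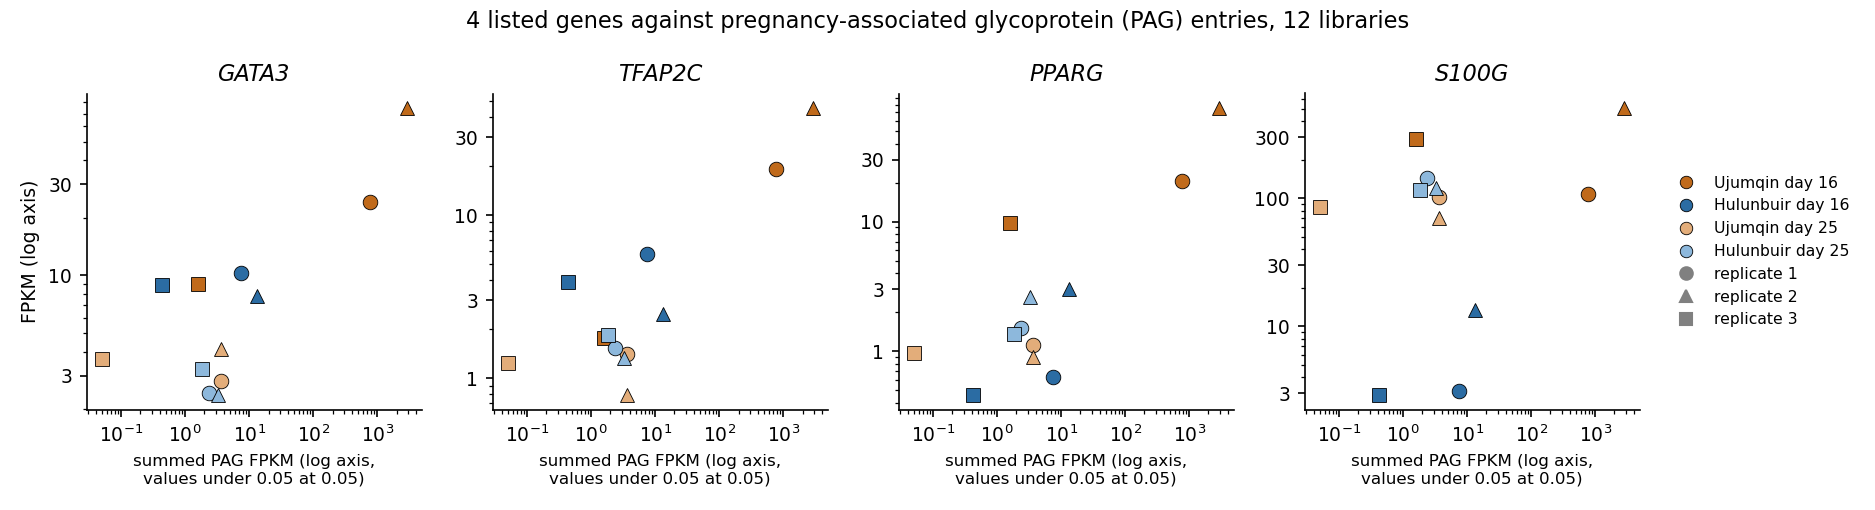
FPKM of GATA3, TFAP2C, PPARG and S100G (vertical log axes) against the summed FPKM of 19 PAG entries (horizontal log axes) in each of the 12 libraries, with colour for the group and symbol for the replicate. GATA3 and TFAP2C were highest in the 2 libraries with PAG sums of 759 and 2866, whereas S100G was at 290 FPKM in the Ujumqin day 16 library with a PAG sum of 1.61.

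S100G changed over the widest range of the 6 genes. In Ujumqin day 16 replicates 1, 2 and 3 it was at 108, 509 and 290 FPKM, and in Hulunbuir day 16 at 3.13, 13.5 and 2.90 FPKM. The lowest Ujumqin library lay well above the highest Hulunbuir library. At day 25 it was at 103, 70.5 and 85.1 FPKM in Ujumqin and at 144, 120 and 117 FPKM in Hulunbuir. Group means therefore ran from 303 ± 201 FPKM (mean ± SD, n = 3 here and below) in Ujumqin day 16, through 127 ± 14.5 in Hulunbuir day 25 and 86.2 ± 16.2 in Ujumqin day 25, to 6.51 ± 6.05 in Hulunbuir day 16. The ranges of Ujumqin day 16 and Hulunbuir day 25 overlapped, the day 25 groups did not overlap on this scale, and Hulunbuir day 16 stood below all other libraries. The 3 Hulunbuir day 16 values rest on 41, 150 and 34 counts.

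PPARG was abundant in a single group. It was at 20.5, 75.5 and 9.80 FPKM in Ujumqin day 16 replicates 1, 2 and 3. The other 9 libraries held between 0.456 and 2.99 FPKM, with 0.635, 2.99 and 0.456 in Hulunbuir day 16, 1.12, 0.903 and 0.970 in Ujumqin day 25, and 1.51, 2.60 and 1.35 in Hulunbuir day 25. Even the PAG-poor replicate 3 of Ujumqin day 16 lay above each of these 9. The group means were 35.3 ± 35.2 FPKM in Ujumqin day 16, 1.82 ± 0.682 in Hulunbuir day 25, 1.36 ± 1.41 in Hulunbuir day 16 and 0.999 ± 0.112 in Ujumqin day 25. The ranges of Hulunbuir day 16 and of both day 25 groups overlapped, apart from the day 25 groups with each other.

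GATA3 and TFAP2C shared another pattern, high in the 2 PAG-rich libraries and at Hulunbuir levels or below in replicate 3 of Ujumqin day 16. GATA3 was at 24.2, 75.0 and 9.0 FPKM in Ujumqin day 16 and at 10.3, 7.77 and 8.94 FPKM in Hulunbuir day 16. Replicate 3 of Ujumqin thus lay inside the Hulunbuir range. For TFAP2C the Ujumqin day 16 values were 19.2, 45.4 and 1.75 FPKM and the Hulunbuir values 5.79, 2.48 and 3.88 FPKM, so that replicate 3 of Ujumqin was below all 3 Hulunbuir libraries. Both genes were low at day 25. GATA3 was at 2.80, 4.13 and 3.64 FPKM in Ujumqin and 2.42, 2.37 and 3.24 in Hulunbuir day 25, and TFAP2C at 1.41, 0.786 and 1.24 FPKM and 1.54, 1.32 and 1.84 FPKM. The order of means was the same for both down to the day 25 groups, with Ujumqin day 16 first (36.1 ± 34.6 FPKM for GATA3 and 22.1 ± 22.0 for TFAP2C), then Hulunbuir day 16 (9.01 ± 1.28 and 4.05 ± 1.66). The day 25 groups overlapped each other for both genes, and replicate 3 of Ujumqin day 16 lay within the Hulunbuir day 25 range for TFAP2C.

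TEAD4 separated the ages and ELF5 was low throughout. TEAD4 was at 14.7, 13.2 and 13.1 FPKM in Ujumqin day 16 and at 15.5, 21.9 and 14.5 FPKM in Hulunbuir day 16. It was at 4.56, 3.19 and 3.14 FPKM in Ujumqin day 25 and at 4.24, 2.45 and 3.63 FPKM in Hulunbuir day 25, so that every day 16 library lay above every day 25 library while the breeds overlapped at both ages. ELF5 stayed between 0.907 and 2.47 FPKM in all 12 libraries, with 1.47, 1.84 and 2.47 in Ujumqin day 16, 1.58, 0.922 and 0.907 in Hulunbuir day 16, 1.53, 1.58 and 1.23 in Ujumqin day 25 and 0.922, 1.23 and 1.43 in Hulunbuir day 25. All pairs of groups overlapped except Ujumqin day 16 and Hulunbuir day 25, and replicates 2 and 3 of Ujumqin day 16 were above every library of the other groups. Per length, ELF5 had the lowest mean of the 5 factors in Ujumqin day 16 embryos, although TFAP2C was below it in replicate 3, and PPARG and GATA3 were the most abundant by mean and S100G exceeded all 5.

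**Figure D2:**
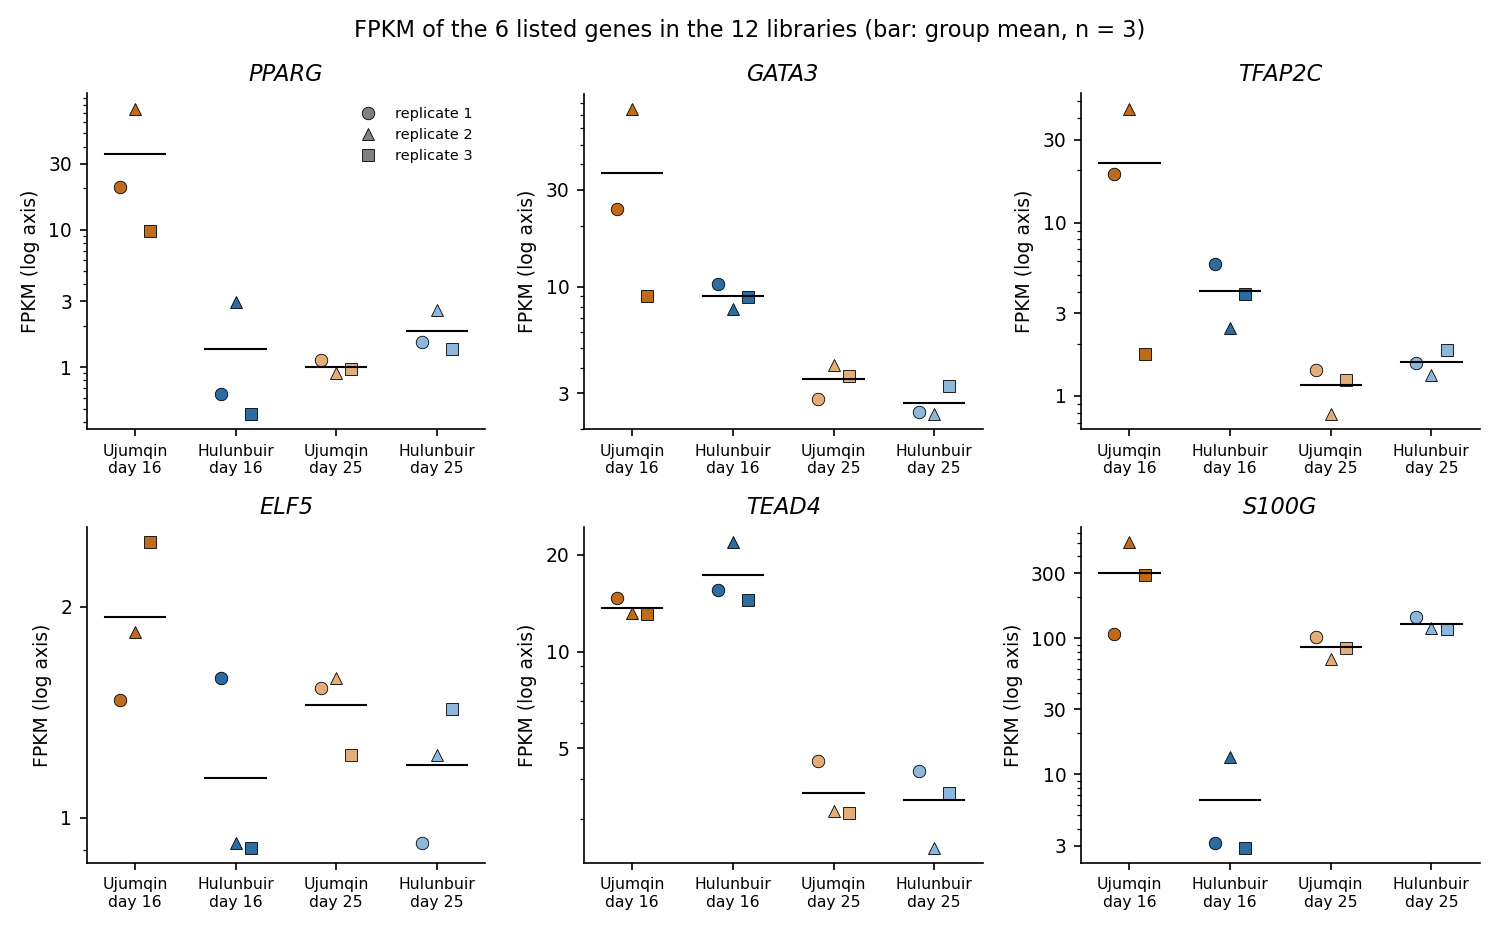
FPKM (log axes) of the 6 genes in each of the 12 libraries, grouped by breed and age, with a symbol for each replicate and a bar at the mean of the 3 libraries. PPARG and S100G separate the breeds at day 16, GATA3 and TFAP2C are high in replicates 1 and 2 of Ujumqin day 16 alone, and TEAD4 separates the ages.

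Between breeds at day 16, 4 of the 6 genes were called lower in Hulunbuir embryos and 0 higher, where 8.39% of all tested genes were called lower and 8.46% higher (adjusted p under 0.05, edgeR quasi-likelihood test with Benjamini-Hochberg adjustment over 14595 genes). S100G was 46.1-fold lower (log2 change -5.53 ± 0.75, standard error, adjusted p = 0.00252). PPARG was 25.8-fold lower (-4.69 ± 0.92, adjusted p = 0.00903). GATA3 (-2.11 ± 0.59, adjusted p = 0.0325) and TFAP2C (-2.58 ± 0.81, adjusted p = 0.0496) were also called, although their libraries overlapped between breeds. S100G and PPARG were lower in Hulunbuir without overlap of the 3 and 3 libraries, which 11.1% of tested genes were on the same FPKM scale.

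The calls depended on how the spread was estimated. In the 6 day 16 libraries alone 0 of the 4 were called by edgeR, with adjusted p-values of 0.10 for S100G, 0.124 for PPARG, 0.178 for GATA3 and 0.213 for TFAP2C. The labels do not say what the replicate numbers mark. They were taken as pairing the breeds at day 16 only because deviations of same-numbered libraries correlated (0.195, 0.322 and 0.383). If that pairing is assumed, a block for the number in these 6 libraries called S100G (0.0285) and PPARG (0.0176). GATA3 (0.191) and TFAP2C (0.358) were not called. With limma voom and a weight per group, only S100G was called (0.0301), against 0.0764 for PPARG, 0.226 for GATA3 and 0.499 for TFAP2C. In bulk RNA, fewer cells of a type and less RNA per cell cannot be told apart, for these genes and for all that follow.

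**Figure D3:**
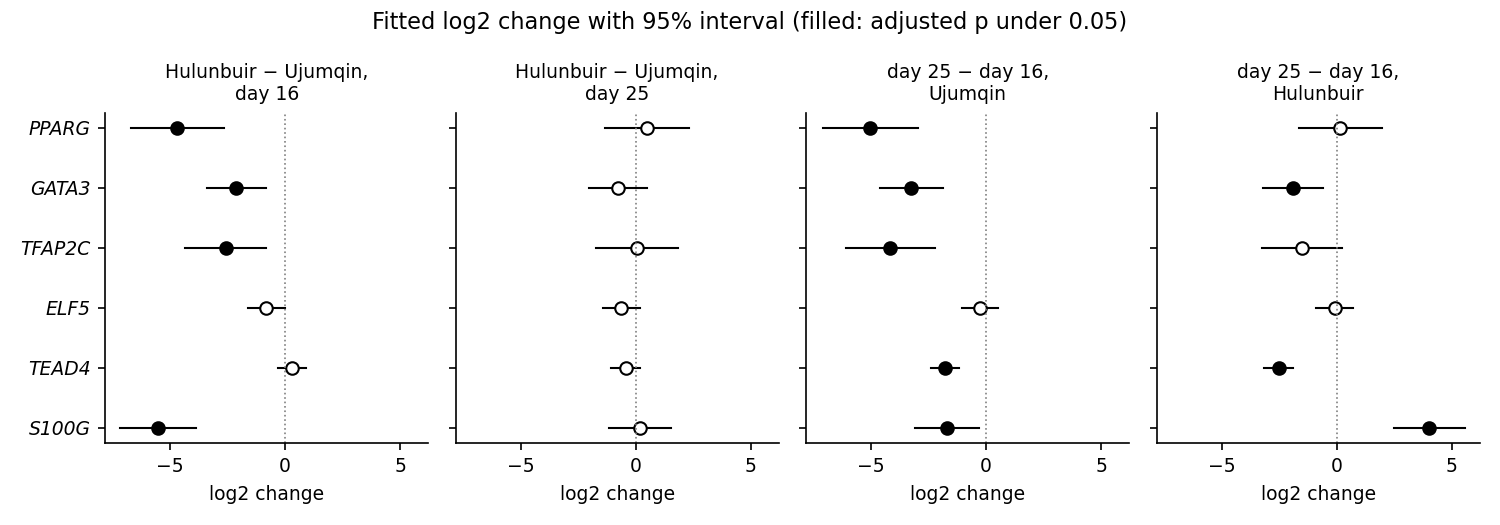
Fitted log2 changes of the 6 genes with 95% intervals (horizontal axes) for Hulunbuir minus Ujumqin at each age and day 25 minus day 16 in each breed, from the model over 12 libraries, with filled points for an adjusted p under 0.05. At day 16, 4 genes are called below 0, ELF5 lies below 0 without a call and TEAD4 lies above 0. At day 25 every interval covers 0. S100G is lower at day 25 in Ujumqin and higher in Hulunbuir.

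TEAD4 was not called between breeds at day 16 (log2 change 0.30 ± 0.27, 95% interval -0.30 to 0.91, adjusted p = 0.462). ELF5 was lower in the mean but not called (-0.82 ± 0.36, 95% interval -1.61 to -0.02, adjusted p = 0.139). Its values rest on few counts, between 57 and 194 per day 16 library.

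A fit without the PAG-rich replicates 1 and 2 was chosen after the values had been seen. It leaves 1 Ujumqin day 16 library, assumed to vary like the other groups, and calls from it below rest on that library. GATA3 and TFAP2C were highest in the 2 libraries left out, so the loss of their difference followed from the values above and was not a test. S100G stayed lower in Hulunbuir by nearly the same amount (-5.41 ± 0.69). PPARG was lower by less than with all libraries (-2.74 ± 0.85 against -4.69 ± 0.92) and was no longer called. GATA3 was at the same fitted level in both breeds (-0.01 ± 0.33), and TFAP2C turned to a higher value in Hulunbuir (1.18 ± 0.56). Without replicate 3 instead, all 4 were called, S100G at -5.60, PPARG at -5.15, GATA3 at -2.58 and TFAP2C at -3.13. That fit called 3361 of the 14595 tested genes in either direction, against 2459 with all libraries.

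Single libraries also mattered for GATA3 and TFAP2C at day 16. GATA3 lost its call without Ujumqin day 16 replicate 2 (-0.95, adjusted p = 0.146), Hulunbuir day 16 replicate 1 (0.0753), 2 (0.0573) or 3 (0.0831), and Hulunbuir day 25 replicate 1 or 2 (0.0502 each). TFAP2C kept its call without Ujumqin day 16 replicate 3 and lost it without any other library, with adjusted p-values between 0.0663 and 0.228 and the highest without Ujumqin day 16 replicate 2 (-1.47). S100G and PPARG kept theirs without each of the 12 libraries in turn, with adjusted p-values of at most 0.00839 and 0.0325. The changes of PPARG then ranged from -6.16 to -3.42, the latter without Ujumqin day 16 replicate 2.

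**Figure D4:**
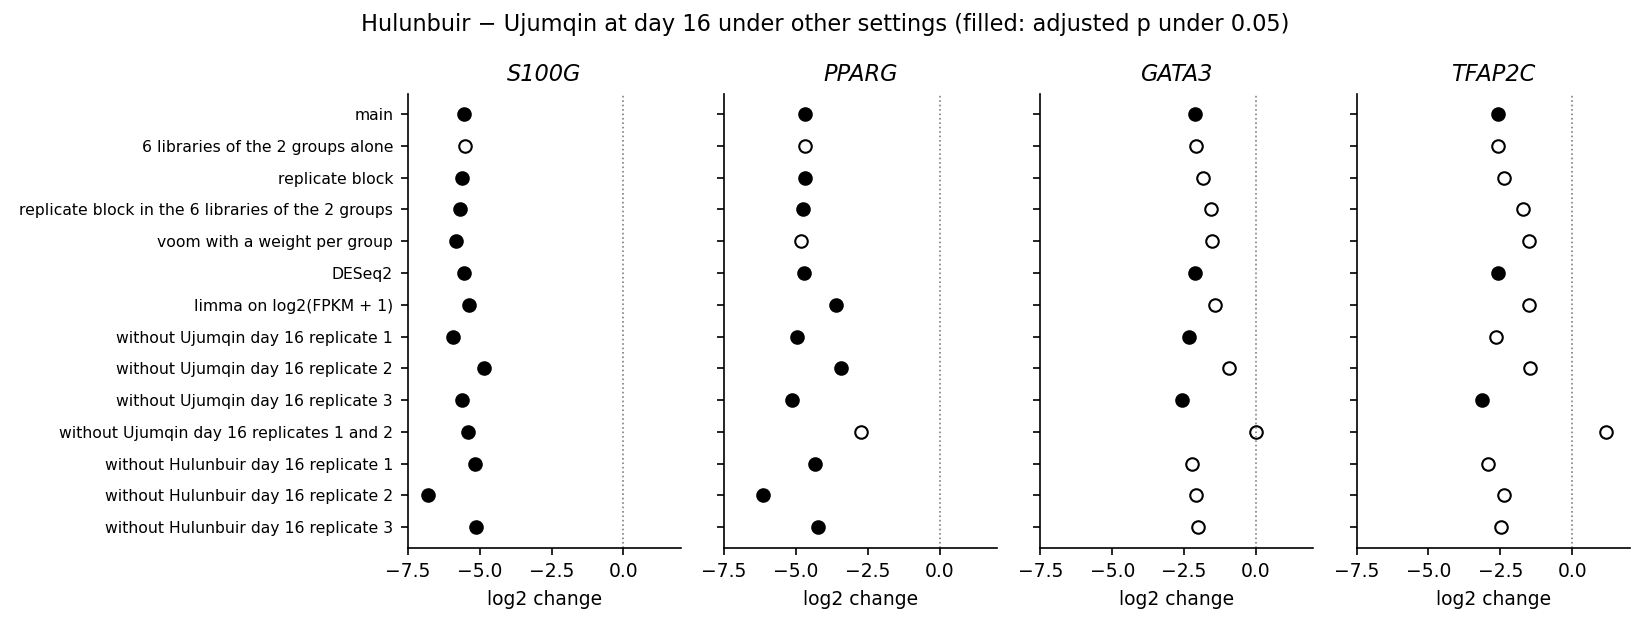
Log2 change between breeds at day 16 (horizontal axes, Hulunbuir minus Ujumqin) of S100G, PPARG, GATA3 and TFAP2C under the model over 12 libraries (main), other models and with libraries left out (rows), with filled points for an adjusted p under 0.05. S100G stays between -6.80 and -4.86 in the rows that leave out a single library and at -5.41 without Ujumqin replicates 1 and 2, where GATA3 is at -0.01 and TFAP2C at 1.18.

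By calls and median change, other trophoblast and placenta genes leaned the same way at day 16, but their summed level overlapped between breeds. It was 5176, 4293 and 3001 FPKM in Ujumqin day 16 and 6705, 4817 and 2613 FPKM in Hulunbuir day 16. Most of this sum was 2 keratin genes, KRT8 and KRT18. KRT8 was at 3002, 2030 and 1384 FPKM in Ujumqin and at 4247, 3153 and 1320 FPKM in Hulunbuir. KRT18 was at 600, 281 and 264 FPKM in Ujumqin and at 1125, 479 and 299 FPKM in Hulunbuir. Of 37 trophoblast and placenta genes on the list, 24 were tested. In Hulunbuir 6 were lower, 1 was higher and 17 were not called, where 8.39% of all tested genes were called lower and 8.46% higher. The median log2 change was -0.74 beside 0.01 over all tested genes. PTGS2, the prostaglandin synthase of the elongating trophoblast, was at 80.1, 174 and 1.34 FPKM in Ujumqin day 16 and between 2.81 and 4.94 in Hulunbuir (log2 change -4.53 ± 1.13, adjusted p = 0.0222). DLX3, a homeobox gene needed in the placenta, was at 8.51, 24.3 and 2.57 FPKM and between 1.28 and 2.37 in Hulunbuir (-2.77 ± 0.69, adjusted p = 0.0226). CDH1, the epithelial cadherin, was at 81.6, 140 and 54.0 FPKM and between 20.6 and 39.0 in Hulunbuir (-1.87 ± 0.46, adjusted p = 0.0218). In the Ujumqin libraries PTGS2 and DLX3 thus repeated the order of the PAG sums, while CDH1 was above Hulunbuir in replicate 3 as well. DLX4, ELF3 and HSD3B1 completed the lower genes, and TPBG, the trophoblast glycoprotein gene, was higher in Hulunbuir (0.99 ± 0.26, adjusted p = 0.0275).

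None of these 7 was called in the 6 day 16 libraries alone (adjusted p between 0.124 and 0.201), nor in those libraries with the replicate block (0.0580 to 0.320). Without Ujumqin replicates 1 and 2, the log2 change of PEG10 was -1.18 and that of BMP4 0.90. Without replicate 3 the list held 8 genes called lower and 0 higher, where 3361 of all 14595 tested genes were called in either direction. GCM1, a factor of trophoblast fusion that did not pass the filter, was at 3.18, 13.9 and 0 FPKM in Ujumqin day 16, at 0.113 FPKM in Hulunbuir day 16 replicate 2 and at 0 in the other 2 libraries of that group. It was at 0 in 8 of the 12 libraries.

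The replicates of Ujumqin day 16 were ranked for every gene. The order of the PAG sums, replicate 2 above replicate 1 above replicate 3, was chosen after the values of the 6 genes had been seen. The counts are therefore a description and not a test. This order was shown by PPARG, GATA3 and TFAP2C among the 6 genes and by 15 of the 24 tested trophoblast genes (62.5%). Of all 14595 tested genes 2812 (19.3%) showed it. Among lists of other tissues it was shown by 5 of 8 endometrium genes (62.5%), 1 of 2 fat cell genes and 2 of 18 yolk sac and endoderm genes (11.1%). S100G and ELF5 did not follow it, with replicate 1 lowest for both. CDX2, a trophectoderm factor, was at 12.8 and 2.87 FPKM in Hulunbuir day 16 replicates 2 and 3. It was highest in replicate 1 of that group, at 36.4 FPKM, against 13.1, 19.9 and 3.90 FPKM in Ujumqin day 16. KRT8, an early trophoblast keratin also made by other simple epithelia, was at 4247 FPKM in that Hulunbuir library and between 1384 and 3002 FPKM in Ujumqin day 16. CDX2 (log2 change 0.43 ± 1.03, adjusted p = 0.80) and KRT8 (0.40 ± 0.44, adjusted p = 0.549) overlapped between breeds at day 16.

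Markers of other tissues that express these genes were read beside them. Of the yolk sac and endoderm list all 18 genes were listed and tested, and none was at 0 in any library. At day 16, 6 were called lower and 1 higher in Hulunbuir (median log2 change -1.23), where 8.39% and 8.46% of all tested genes were. Their summed level was 24336, 25639 and 61486 FPKM in Ujumqin day 16 and 4379, 13567 and 4891 FPKM in Hulunbuir day 16, without overlap between breeds. AHSG alone had a mean of 20028 FPKM in Ujumqin day 16 and 3802 FPKM in Hulunbuir day 16. Within Hulunbuir day 16, replicate 2 had the highest sum of the list and also the highest S100G and PPARG, and the lowest GATA3 and TFAP2C. Within Ujumqin day 16 the orders differed, since the sum was highest in replicate 3, where PPARG was lowest, and S100G and PPARG were highest in replicate 2. Without Ujumqin replicates 1 and 2, the log2 change was -3.06 for AHSG, -5.11 for SERPINA1 and 0.63 for SOX17, all on this list. The part of yolk sac tissue in the S100G difference was not tested. Fat cells are another site of PPARG, and of their 8 listed markers 7 were in the table. LEP had no count in any library and FABP4 none in 10 of 12, ADIPOQ reached 4.08 FPKM at most, in Ujumqin day 16 replicate 2. By edgeR 0 of the 2 tested markers were called, and the summed level was 32.4 to 73.6 FPKM in Ujumqin and 17.6 to 33.0 FPKM in Hulunbuir at day 16. Most of that level was ADIPOR2, at 27.3 to 65.0 FPKM in Ujumqin and 14.8 to 28.6 FPKM in Hulunbuir.

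Uterine endometrium, which also makes S100G, was represented by 14 of 18 listed markers, of which 8 were tested. At day 16, 2 were called higher and 2 lower in Hulunbuir, where 8.46% and 8.39% of all tested genes were. Without Ujumqin replicates 1 and 2, the log2 change was 1.39 for MSX1 and -0.90 for MUC1. PGR and PAEP, its progesterone receptor and glycodelin genes, had no count in any library and ESR1 none in 11. The summed level of this list was 836, 2293 and 246 FPKM in Ujumqin day 16 and 237 to 402 FPKM in Hulunbuir. Most of the former was CST3 (605, 1750 and 162 FPKM) and CTSL (157, 471 and 4.83 FPKM), protease and inhibitor genes that other tissues express as well. MUC1 (15.4, 28.2 and 9.61 FPKM) and WNT7A (1.36, 3.72 and 0 FPKM) had the same order in Ujumqin day 16. In Hulunbuir day 16 MUC1 was at 8.51, 4.05 and 2.80 FPKM and WNT7A at 0.390, 0 and 0 FPKM. SPP1 and MSX1 had higher means in Hulunbuir day 16 (49.5 and 29.6 FPKM) than in Ujumqin (15.7 and 15.6 FPKM). The part of uterine tissue was not tested.

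PPARG's partners and targets were measured as a list of 32, of which 28 were tested. Between breeds at day 16, 8 were lower in Hulunbuir, 1 was higher and 19 were not called, with a median of -0.61. Of all tested genes 8.39% were called lower and 8.46% higher. The lower genes named by the smallest adjusted p were SCD, the stearoyl-CoA desaturase (225 ± 27.0 FPKM among Ujumqin and 130 ± 13.8 among Hulunbuir libraries, log2 change -0.87 ± 0.15), the mitochondrial carrier UCP2 (81.6 ± 22.1 and 37.5 ± 10.6, -1.21 ± 0.22) and the coactivator NCOA2 (10.3 ± 2.51 and 5.15 ± 2.04, -1.11 ± 0.22). PPARD, SLC27A6 and CPT1A were also lower. ANGPTL4, a lipoprotein lipase inhibitor and a known PPARG target, went the other way, from 7.60 ± 2.72 FPKM in Ujumqin to 23.2 ± 6.41 in Hulunbuir (log2 change 1.51 ± 0.25, adjusted p = 0.00513). All 9 lost their calls in the 6 libraries alone (0.122 to 0.203), and ANGPTL4 was the only one of them called with the replicate block there (0.0460). Without Ujumqin replicates 1 and 2, ANGPTL4 was at 1.91, NCOA2 at -1.37, SLC27A6 at -2.67 and UCP2 at -1.07. SCD (-0.70), CPT1A (-1.14) and PPARD (-0.06) lost their calls there. The obligate partner RXRA was not called (13.1 FPKM in Ujumqin and 9.02 in Hulunbuir), and neither was FABP5, a fatty acid carrier at 1607 and 638 FPKM.

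Relatives of GATA3, TFAP2C and ELF5 were read from lists of their families, beside 8.39% of all tested genes called lower and 8.46% higher in Hulunbuir at day 16. In the GATA family list of 5 tested genes, GATA1, the erythroid factor, was lower in Hulunbuir at day 16 (30.3 ± 16.4 to 2.86 ± 1.23 FPKM, log2 change -3.43 ± 0.41, adjusted p = 0.00167) and GATA4, a heart and endoderm factor, was higher (10.2 ± 4.10 to 19.5 ± 5.25 FPKM, 0.84 ± 0.24, adjusted p = 0.0344). Both lost their calls in the 6 libraries alone (0.10 and 0.204). Without Ujumqin replicates 1 and 2 GATA1 was called (-4.09, adjusted p = 0.000499) and GATA4 was not (0.44, 0.243). TFAP2A and TFAP2B, the tested relatives of TFAP2C, were not called, and TFAP2A was at 12.6, 32.8 and 1.87 FPKM in Ujumqin day 16, in the order of the PAG sums. Of 7 tested ETS factors, ELF1 (17.9 ± 6.87 and 5.77 ± 0.706 FPKM, -1.70 ± 0.27, adjusted p = 0.00448) and ELF3 were lower in Hulunbuir, with 0.102 and 0.201 in the 6 libraries alone. Without Ujumqin replicates 1 and 2 ELF1 was called (-1.46, adjusted p = 0.0116) and ELF3 was not (0.35, 0.749).

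Most genes of TEAD4's pathway were not called between breeds at day 16. Of 23 tested TEAD partners and Hippo pathway genes, 3 were higher in Hulunbuir, 2 were lower and 18 were not called, near the 8.46% and 8.39% of all tested genes. TEAD2 was at 108 ± 26.4 FPKM in Hulunbuir and 49.3 ± 15.2 in Ujumqin (log2 change 1.04 ± 0.20, adjusted p = 0.00809), with VGLL2 and ANKRD1 also higher, and the kinase STK3 and its partner MOB1A were lower. All 5 lost their calls in the 6 libraries alone (0.136 to 0.207). Without Ujumqin replicates 1 and 2 TEAD2 was called (1.10, adjusted p = 0.0130), and VGLL2 (0.341), ANKRD1 (0.274), STK3 (0.457) and MOB1A (0.0723) were not. YAP1 was not called (89.2 FPKM in Hulunbuir and 66.3 in Ujumqin).

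Of S100G's family and of the calcium handling genes 1 each was called at day 16, near the shares of all tested genes (8.39% lower and 8.46% higher). Of 11 other tested S100 genes (median log2 change -1.0), S100A11 was called, lower in Hulunbuir (906 ± 36.7 to 484 ± 151 FPKM, log2 change -0.95 ± 0.27, adjusted p = 0.0347, 0.166 in the 6 libraries alone). Of 11 tested vitamin D and calcium transport genes (median 0.12), the sodium-calcium exchanger SLC8A1 was called, higher in Hulunbuir (1.72 ± 0.39, adjusted p = 0.0166, 0.140 in the 6 libraries alone). Neither was called without Ujumqin replicates 1 and 2 (S100A11 -0.94, adjusted p = 0.190, and SLC8A1 1.23, 0.233). The vitamin D receptor VDR was at 3.52, 3.45 and 1.42 FPKM in Ujumqin day 16 and 4.10, 1.09 and 1.49 in Hulunbuir, with overlap. TRPV6, the apical calcium channel, was below the filter, at 1.43, 6.26 and 0.170 FPKM in Ujumqin and between 0.230 and 0.467 in Hulunbuir day 16.

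At day 25 0 of the 6 genes were called between breeds by edgeR, 0 at an unadjusted p under 0.05 and 0 by DESeq2, where 7.88% of tested genes were called higher in Hulunbuir and 8.84% lower. S100G (0.19 ± 0.61, 95% interval -1.15 to 1.54) and PPARG (0.49 ± 0.84, interval -1.35 to 2.33) were higher in Hulunbuir without overlap on the FPKM scale, as 49.1% of all tested genes were, but overlapped after TMM scaling of the counts. On log2(FPKM + 1) the median breed difference of all genes at day 25 was 0.29, against -0.01 in the fit to counts. GATA3 had the largest difference (-0.77 ± 0.58, adjusted p = 0.392), and in the 6 day 25 libraries alone it was called lower in Hulunbuir (-0.73, adjusted p = 0.0347), where 46.0% of tested genes were called.

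Of the 28 tested partners and targets of PPARG, 5 were higher in Hulunbuir at day 25, 0 were lower and 23 were not called (median 0.24), where 7.88% of all tested genes were higher and 8.84% lower. UCP2 was at 115 ± 3.60 FPKM in Hulunbuir and 23.9 ± 1.02 in Ujumqin (log2 change 1.89 ± 0.22, adjusted p = 0.00116). SCD, RXRA and NCOA2 were also higher. In the trophoblast list, SLC2A1, a glucose transporter, and PEG10 were higher in Hulunbuir, KRT7 and BMP4 were lower and 20 were not called.

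From day 16 to day 25 in Ujumqin, 5 of the 6 genes fell and ELF5 was not called, where 32.9% of tested genes were called lower and 30.7% higher. PPARG fell 32.7-fold (log2 change -5.03 ± 0.94, adjusted p = 0.000792) and TFAP2C 17.9-fold (-4.16 ± 0.88, adjusted p = 0.00171). GATA3 fell 9.48-fold (-3.25 ± 0.62, adjusted p = 0.000864) and TEAD4 3.44-fold (-1.78 ± 0.28, adjusted p = 0.000273). S100G fell 3.22-fold (-1.69 ± 0.63, adjusted p = 0.0346), a call lost without Ujumqin day 16 replicate 2 (-1.03, adjusted p = 0.167) and without Ujumqin day 25 replicate 1 (0.0622), 2 (0.0918) or 3 (0.0758). Without both PAG-rich libraries TEAD4 (-1.69), GATA3 (-1.18) and PPARG (-3.12) were still called, TFAP2C was at -0.44 (adjusted p = 0.499) and S100G at -1.59 (0.0702). Without replicate 2 alone PPARG was at -3.77, TFAP2C at -3.06 and GATA3 at -2.08, all called.

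In Hulunbuir the same interval brought 2 falls and 1 rise, where 21.6% of tested genes were called lower and 18.9% higher. S100G rose 16.3-fold from 6.51 to 127 FPKM (log2 change 4.03 ± 0.71, adjusted p = 0.00126) and kept its call without each library. TEAD4 fell 5.74-fold (-2.52 ± 0.29, adjusted p = 0.000118). GATA3 fell 3.74-fold (-1.90 ± 0.59, adjusted p = 0.0242), a call lost without Hulunbuir day 16 replicate 1 (0.0562) or Hulunbuir day 25 replicate 1 (0.0768), 2 (0.0786) or 3 (0.0527). TFAP2C was lower at day 25 in the mean and in all libraries (-1.51 ± 0.80, adjusted p = 0.152), and it was called in the 6 Hulunbuir libraries alone (0.0198), where 39.1% of tested genes were called. PPARG (0.15 ± 0.82, interval -1.65 to 1.95) and ELF5 (-0.08 ± 0.36, interval -0.88 to 0.72) were not called.

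The breeds' changes with age differed for S100G and PPARG, the 2 of 6 genes with a called interaction, where 8.89% of tested genes had a positive and 10.3% a negative one. The breed difference of S100G at day 25 exceeded that at day 16 by 5.72 ± 0.94 on the log2 scale (adjusted p = 0.00326), and that of PPARG by 5.18 ± 1.21 (adjusted p = 0.0149). Both were called by voom with a weight per group (0.00844 and 0.0459). Without Ujumqin day 16 replicates 1 and 2, S100G alone was called. GATA3 (1.34 ± 0.81, adjusted p = 0.261) and TFAP2C (2.66 ± 1.13, adjusted p = 0.118) were not called with all libraries, but each was without Ujumqin day 16 replicate 3 (1.81, adjusted p = 0.0331, and 3.20, adjusted p = 0.00403). TEAD4 (-0.74 ± 0.39) and ELF5 (0.18 ± 0.51) were not called.

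The trophoblast list fell with age in both breeds, as the 4 factors other than ELF5 did in Ujumqin. In Ujumqin 18 of 24 tested genes were lower at day 25, 1 was higher and 5 were not called (median -2.36 beside -0.07 over all genes), and in Hulunbuir 15 were lower, 0 higher and 9 not called (median -1.89 beside -0.04). PEG10, an imprinted gene needed for the placenta, fell from 477 to 43.0 FPKM in Ujumqin (log2 change -3.31 ± 0.25, adjusted p = 2.7e-06) and from 315 to 97.5 FPKM in Hulunbuir (-1.81 ± 0.23, adjusted p = 0.000195). CDX2 fell from 12.3 to 0.157 FPKM in Ujumqin (-6.05 ± 1.38, adjusted p = 0.00279) and from 17.3 to 0.319 FPKM in Hulunbuir (-5.89 ± 1.32, adjusted p = 0.00495). These 2 genes were thus higher at day 16 than at day 25 in both breeds. CDX2 spread widely at day 16, from 2.87 to 36.4 FPKM in Hulunbuir and from 3.90 to 19.9 FPKM in Ujumqin. Of the 23 Hippo pathway genes 14 fell with TEAD4 in Ujumqin and 2 rose, and 15 fell and 0 rose in Hulunbuir. YAP1 fell in both (-1.70 ± 0.21, adjusted p = 4.5e-05, and -1.73 ± 0.21, adjusted p = 0.000145). Of the PPARG partners and targets 18 of 28 were lower and 3 higher at day 25 in Ujumqin, against 9 lower and 6 higher in Hulunbuir. Of all tested genes 32.9% were called lower and 30.7% higher in Ujumqin, and 21.6% and 18.9% in Hulunbuir.

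The other S100 genes were split with age. In Ujumqin 5 of 11 were higher at day 25 and 2 lower, where 30.7% and 32.9% of all tested genes were. In Hulunbuir 4 were higher and 2 lower, where 18.9% and 21.6% of all tested genes were. S100B, a neural and glial marker, rose in both (2.66 ± 0.40, adjusted p = 0.000170, and 3.41 ± 0.41, adjusted p = 0.000140), and S100A16 fell in both (-1.54 ± 0.35 and -1.42 ± 0.35). By edgeR 0 of the 11 had a called interaction, where 8.89% of all tested genes had a positive and 10.3% a negative one. Of the 28 PPARG partners and targets 7 had a positive called interaction, led by UCP2 (3.1 ± 0.31, adjusted p = 0.000366) and SCD, and ANGPTL4 had a negative one. The yolk sac and endoderm list, by contrast, had 8 of 18 genes with a positive called interaction and 0 with a negative one (median 2.45 beside -0.03). Its summed level at day 25 was 4923 to 7407 FPKM in Ujumqin and 18939 to 20443 FPKM in Hulunbuir. At that age 3 of the 18 genes were called higher in Hulunbuir and 0 lower, where 7.88% and 8.84% of all tested genes were.

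For each gene the nearest profiles over the 12 libraries were found among 12522 other tested genes with a symbol, by the root-mean-square difference of log2(FPKM + 1) after each gene's own mean was subtracted. S100G was nearest to NUPR1 (0.68), a stress-induced regulator, and then to TTR (0.91) and SERPINA1 (0.98), genes of secreted plasma proteins that yolk sac and liver make, both on the yolk sac and endoderm list. PPARG was nearest to BIN2 (0.43), UNC13D (0.44), a factor of granule secretion, and ATP6V0A4 (0.47), a proton pump subunit. GATA3 was nearest to the peptidase gene DPP4 (0.25), GGTA2P (0.34) and the lipase gene LIPH (0.38), and TFAP2C to PLA2G15 (0.34), SPTLC3 (0.36) and CTSB (0.36), which act in lysosomes and sphingolipid synthesis. The lists of these 3 factors shared no gene. TEAD4 was nearest to the laminin gene LAMB1 (0.21), CALU (0.21) and HSPA5 (0.22), secretory pathway genes that also fell with age. ELF5, which varied least, was nearest to C6H4orf3 (0.16), SHLD2 (0.16) and IDI1 (0.17). A small difference is easier to reach for a gene that varies little, so the values rank genes within a profile and not between profiles.

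**Figure D5:**
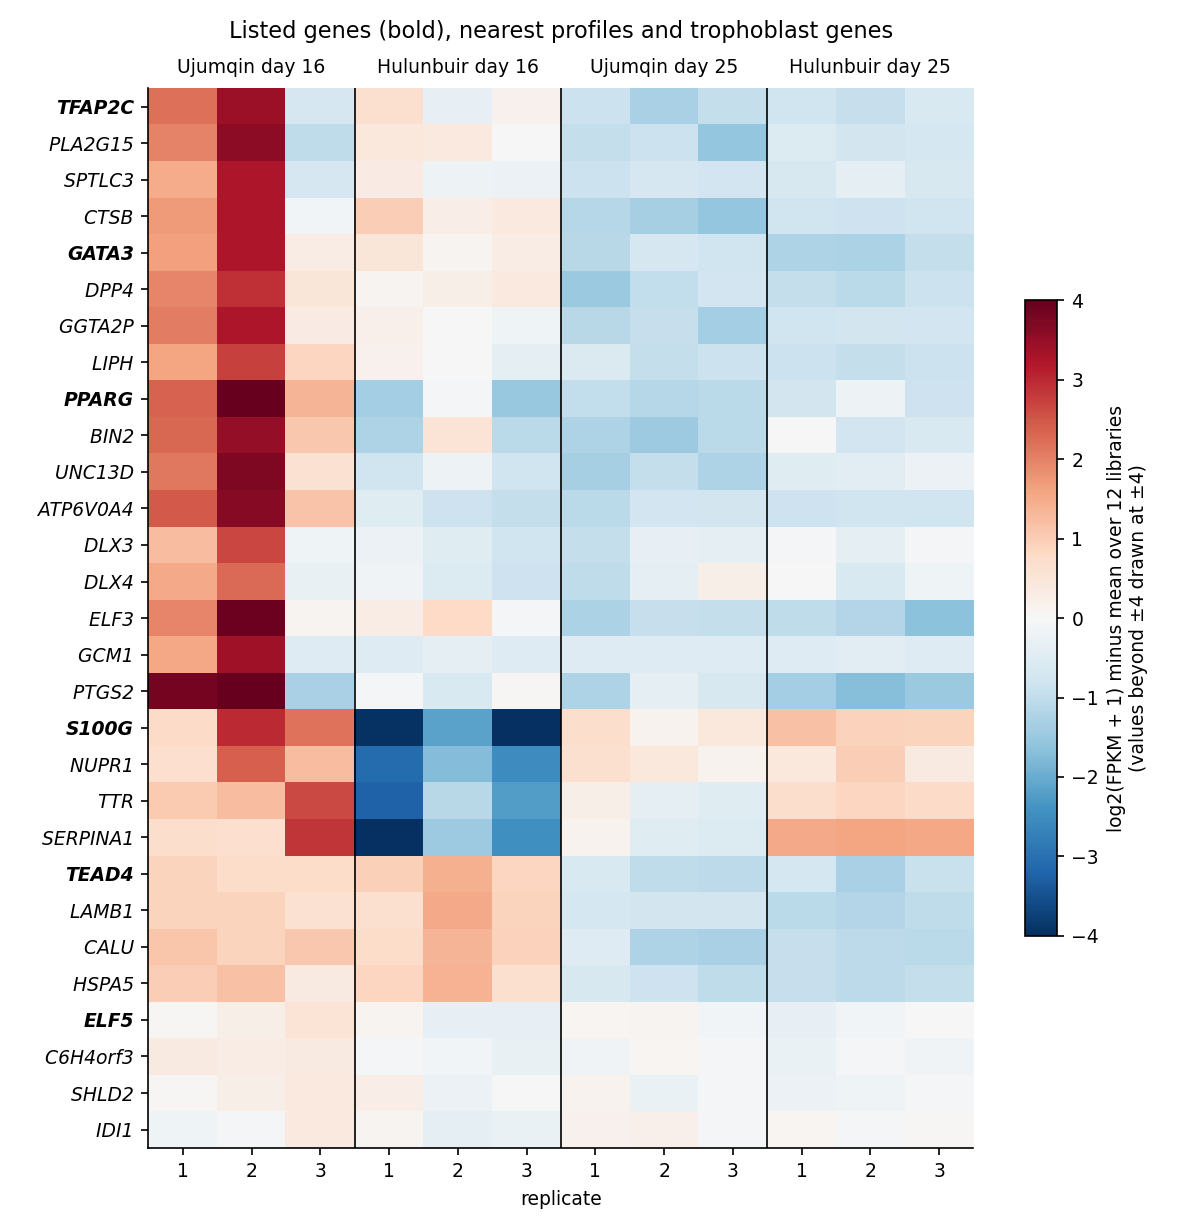
Colour shows log2(FPKM + 1) minus each gene's mean over the 12 libraries (columns, by group and replicate) for the 6 genes (bold rows), the 3 nearest profiles of each, and 5 trophoblast genes that repeat the order of the PAG sums, chosen after their values were seen (DLX3, DLX4, ELF3, GCM1 and PTGS2). The TFAP2C, GATA3 and PPARG blocks are darkest red in Ujumqin day 16 replicate 2, the S100G block is blue in all 3 Hulunbuir day 16 libraries, and the TEAD4 block divides day 16 from day 25.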

How the data were processed

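Gene counts and FPKM values were used as the authors deposited them. The submitters' processing notes name cutadapt 1.9, FastQC and the Oar_v3.1 build. Not given in the sources used here are the aligner, the programs behind the counts and FPKM, and strandedness. From the counts, edgeR 4.0.16 (R 4.3.3) was run with TMM scaling and the quasi-likelihood test on 14595 of 26247 genes with at least 1 FPKM in at least 3 of 12 libraries, with a mean for each of 4 groups. Adjusted p-values are Benjamini-Hochberg over all tested genes, with a threshold of 0.05. limma 3.58.1 (voom, and log2(FPKM + 1)) and DESeq2 1.42.0 were alternatives, and the fit was tested on simulated data. Symbols came from the table (17043 entries) or RefSeq gene names (1276). No replicates agreed within sampling noise. Deviations of same-numbered day 16 libraries correlated at 0.195, 0.322 and 0.383, each above 0.1, so the numbers were taken as pairing the breeds at day 16, and the replicate block is given there. The 6 genes, their lists and the alternatives were chosen with earlier results of these data known. Named list genes were up to 3 called per direction with the smallest adjusted p, up to 2 uncalled with the highest mean FPKM, the 3 nearest profiles of each gene, and other genes of the lists. Some list genes are counted but not reported here by name. The amnion, blood and nephric duct lists had 4 of 11, 2 of 11 and 1 of 8 tested genes called between breeds at day 16. Of all tested genes 8.46% were called higher and 8.39% lower in Hulunbuir there.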

Additional observations from a re-analysis of the deposited data

Results flagged for a closer look

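The log2 difference of Hulunbuir minus Ujumqin for PPARG was higher at day 25 than at day 16 by 5.18 and that of S100G by 5.72, each by an interaction test in edgeR (adjusted p = 0.0149 and 0.00326). For PPARG, Hulunbuir was low at day 16 and the breeds were not called apart at day 25. For S100G, the level fell with age in Ujumqin and rose in Hulunbuir. Without Ujumqin day 16 replicates 1 and 2, which leaves 1 library in that group, the values were 3.28 for PPARG and 5.65 for S100G. The summed yolk sac and endoderm list was lower in Hulunbuir at day 16, as S100G was, and higher at day 25, where S100G was not called. Of its 18 genes 3 were called higher and 0 lower at day 25, where 7.88% and 8.84% of all tested genes were. AHSG alone had a mean of 10249 FPKM in Hulunbuir and 2708 FPKM in Ujumqin at day 25. The part of yolk sac tissue in the S100G difference was not tested.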

How the results depend on the processing

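Of 708 values recomputed under alternatives, 631 kept their direction and their side of the threshold, 52 lost a call, 10 gained one and 15 changed sign. At day 16, 4 genes were called lower in Hulunbuir. With only the 6 libraries of that age 0 were called, with the replicate block in those 6 there were 2, with voom 1, with each of the 3 limma fits to FPKM 2, and with the replicate block over 12 libraries 2. Leaving out 1 library at a time gave 2 to 4. At day 25, where 0 were called, the 6 libraries alone gave 1 (GATA3), also with the replicate block. In Ujumqin the 5 calls with age became 3 with the replicate block in 6 libraries, which ended those of S100G (0.0684) and TFAP2C (0.0590), and 4 to 5 when 1 library was left out. In Hulunbuir 3 became 2 to 4. The 2 interactions became 2 to 4. Replicate numbers were not taken as pairing samples in the day 25 breed comparison or the age comparisons.

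The fit without Ujumqin day 16 replicates 1 and 2 was chosen after seeing the data and leaves 1 library in that group. There TFAP2C changed sign at day 16 (1.18), as did the interactions of GATA3 (-0.71) and TFAP2C (-1.06). The other sign changes were in uncalled values near 0. With 1 library left out, TEAD4 at day 16 ranged from -0.03 to 0.50, TFAP2C at day 25 from -0.06 to 0.26, PPARG with age in Hulunbuir from -0.31 to 1.64, ELF5 there from -0.29 to 0.22, and the ELF5 interaction from -0.02 to 0.49. TEAD4 at day 25 was 0.02 on FPKM rescaled to a common sum, and ELF5 with age in Hulunbuir was 0.05 with log2(FPKM + 1) and 0.09 with log2(FPKM + 0.1). The cause of these changes was not tested.

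Over all genes, 2459 day 16 calls became 3 in the 6 libraries, 293 with the block there, 487 with voom, 3696 with DESeq2, 770 without Ujumqin replicates 1 and 2, 1167 without Ujumqin replicate 2 and 1527 without Hulunbuir replicate 1. At day 25, 2440 became 6716 in the 6 libraries, 6482 with the block there, 6665 with voom, 4215 on the common sum and 898 to 1039 without 1 of 5 day 25 libraries. The 2804 interactions became 1561 to 1656 without the same libraries. Low counts limit ELF5 at both ages and S100G in Hulunbuir day 16.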
